A study of Mus musculus with 9 samples.

Results

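Complement is the plasma protein cascade that marks microbes and dying cells for removal, and 33 genes of it were followed here in mouse liver RNA. They were picked by gene symbol, matched to Ensembl IDs in GENCODE M21, and make up 33 of the 54532 gene IDs counted. The list holds the genes that start the classical and lectin pathways, the central components C2, C3 and C4, the alternative pathway, the terminal pathway, the receptors of the cleaved peptides, and regulators. By known main source in liver, 5 were set down as macrophage-made (C1qa, C1qb, C1qc, C3ar1 and C5ar1), 21 as hepatocyte-made and 7 as of mixed or other source. All but Cfd passed the filter on low counts, so 32 were tested among 14763 genes.

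In the classical pathway, C1q binds antibody on a target and activates the proteases C1r and C1s, which cleave C4 and C2. The lectin pathway reaches the same step through mannose-binding lectins or ficolins and their MASP proteases, and the alternative pathway amplifies C3 cleavage with factors B and D and properdin. Cleaved C3 coats the target, cleaved C5 starts assembly of the membrane attack complex from C6, C7, C8 and C9, and the small fragments C3a and C5a act on receptors of myeloid cells. The liver makes most of the soluble components, in hepatocytes, while C1q comes from macrophages, which in liver are chiefly Kupffer cells.

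RNA came from livers of male C57BL/6 ApoE-/- mice, which lack apolipoprotein E and so clear lipoproteins poorly. The groups, of 3 libraries each, were normal diet (replicates 4, 5 and 6), high-fat diet then PBS (HFD + PBS, replicates 3, 4 and 6) and high-fat diet then injected human IgG1, a recombinant product (HFD + IgG1, replicates 5, 6 and 7). The high-fat diet, with 41% of its calories from fat, ran for 20 weeks from 4 weeks of age with chow for 1 week after it. Injections into the peritoneum of PBS, or of 3 mg of IgG1 whose target the labels do not give, were made at 25, 26 and 27 weeks of age, and these mice were killed at 29 weeks. For the normal diet group the sources used here give no injections and no age at death, so diet cannot be told apart from these. Livers were picked for sequencing in the light of their Oil Red O staining and triglyceride values, and whether each library is a separate animal rests on the series design. The comparisons with normal diet and with IgG1 share the HFD + PBS libraries, so that a chance high or low value there enters both with opposite sign.

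Library totals were 16215194 to 18538463 counts. Counts of Apoe, the deleted gene, were 225 to 1655 in 8 libraries and 235888 in the ninth, which is labelled HFD + IgG1 replicate 5. Normal diet replicate 5 and HFD + PBS replicate 6, labelled male, had 17065 and 10970 counts of Xist and 0 of 4 genes of the Y chromosome (Ddx3y, Eif2s3y, Kdm5d, Uty), where the other 7 libraries had 2837 to 3385 Y-linked counts and 0 to 4 of Xist. The treatment label reads IgG2 and IgG3 for replicates 6 and 7 of the group that the titles and design place under IgG1. In that group replicate 6 lay apart from the others in the macrophage genes and in C3. It was singled out by the values of these same genes, and leaving it out narrows that group's spread in them. Calls of such genes made without it are therefore no further support. It also lay outside the range of replicates 5 and 7 in Fcna, Cfp, C7, C8a, C8b, C8g and Cd55, and the same holds for these. For the class counts and for the genes whose values they move most, results are given with and without these libraries.

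Transcript levels of the complement genes spanned several orders of magnitude. Per kilobase of exon, the mean over all 9 libraries was highest for C3, at 3812 CPM per kb (CPM are counts scaled to library size with TMM factors). Clu followed at 657, C4b at 504, Serping1 at 484 and Cfi at 434 CPM per kb, all of them genes of secreted hepatocyte products. C1qb stood at 190, C1qa at 179 and C1qc at 95.8 CPM per kb. The lowest tested genes were C7 at 2.23, C4a at 2.41, C5ar1 at 2.69 and C3ar1 at 2.80 CPM per kb. C3 alone took 1.03% to 2.74% of a library's counts.

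**Figure D1:**
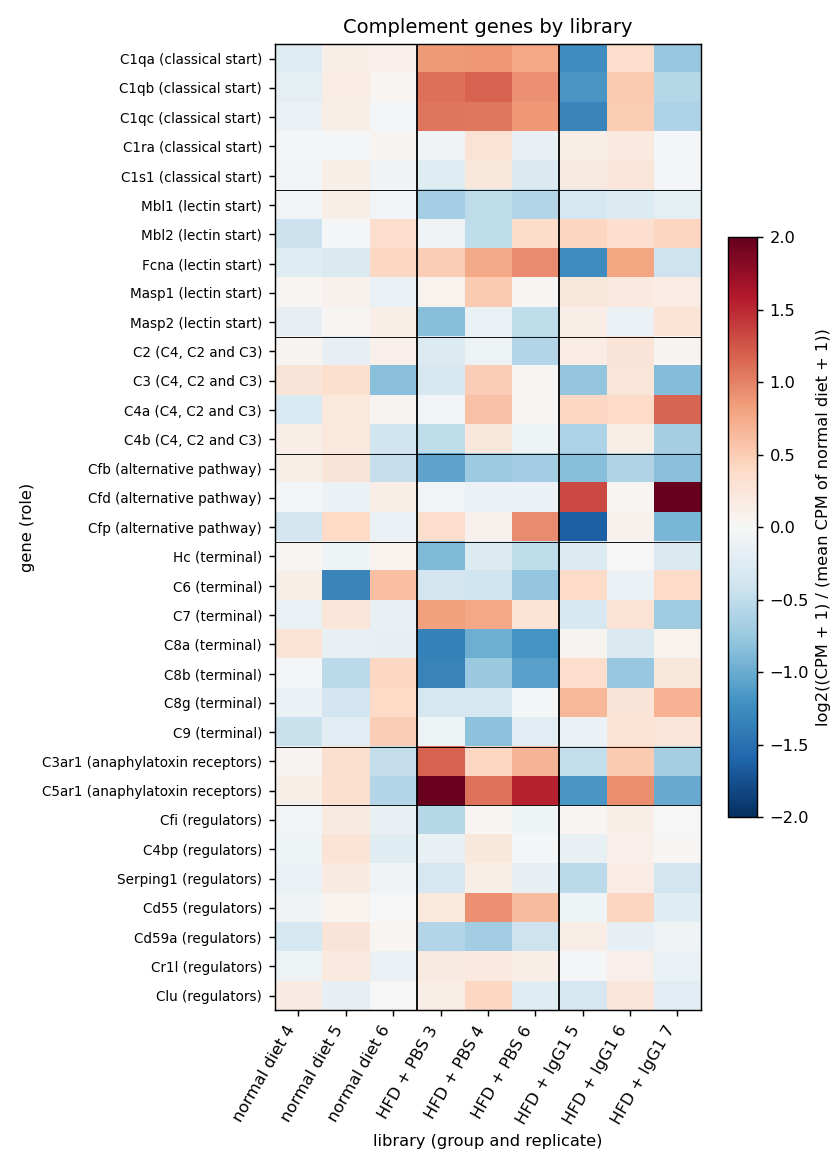
Heat map of the 33 complement genes (rows, grouped by role) in the 9 libraries (columns). Colour is log2 of (CPM + 1) over (the normal diet mean CPM + 1), shown from -2 to 2. The C1q genes and C5ar1 are red in all HFD + PBS libraries, C8a and C8b are blue there, and HFD + IgG1 replicate 6 is red for the C1q genes where replicates 5 and 7 are blue.

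The macrophage-made genes and the hepatocyte-made genes leaned opposite ways in HFD + PBS. No complement gene passed an adjusted p of 0.05 in edgeR's quasi-likelihood test with Benjamini-Hochberg adjustment, and nor did any other gene (0% called in each of the 3 comparisons), so the counts that follow use the unadjusted p and are read against its rate over all genes. Against normal diet, 7 of the 32 tested members were higher in HFD + PBS and 7 lower at an unadjusted p below 0.05, where 9.41% of all tested genes were higher and 11.4% lower. All 5 macrophage-made genes were among the higher and none of the 21 hepatocyte-made genes was, while 6 hepatocyte-made genes were among the lower. The median log2 fold change was 1.00 over the macrophage-made genes and -0.18 over the hepatocyte-made genes, beside -0.00 over all genes tested. In HFD + IgG1 against HFD + PBS, 7 members were higher and 8 lower, where 12.6% and 11.6% of all genes were. All 5 macrophage-made genes were among the lower, with a median of -1.29, and 6 hepatocyte-made genes among the higher, with a median of 0.33 over the 21, beside 0.04 over all genes. Counting Fcna and Cfp as macrophage-made too gave 5 of 7 higher against normal diet, with a median of 0.86. It gave 6 of 7 lower in the comparison with IgG1, with a median of -1.24. Hepatocyte markers outside complement (Alb, Ttr, Apoa1, Fgb, Serpina1c, Ahsg and Hnf4a) had medians of -0.15 and then 0.55 in these 2 comparisons. In the second, 5 of the 7 were positive and 3 were higher at an unadjusted p below 0.05. Their part in the hepatocyte-made values was not tested.

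The class counts moved with single libraries. In the comparison of HFD + PBS with normal diet, the number of macrophage-made genes at an unadjusted p below 0.05 was 0 of 5 without normal diet replicate 4, 1 when normal diet replicate 6 or HFD + PBS replicate 3 was left out, 2 without HFD + PBS replicate 6 and 3 without HFD + PBS replicate 4, while the median stayed between 0.98 and 1.07. In the comparison with IgG1 it was 3 without HFD + PBS replicate 3, HFD + IgG1 replicate 5 or HFD + IgG1 replicate 7. Without HFD + IgG1 replicate 6 all 5 remained, and their median was -1.91. With the 3 libraries that contradict their labels left out (Apoe in 1, Xist in 2), the count was 3 of 5 in both comparisons, with medians of 1.16 and -1.05. The hepatocyte-made median against normal diet was 0.01 without HFD + PBS replicate 3, so its sign rests on that library. DESeq2 called 6 members against normal diet (C1qb and C5ar1 higher, C8a, C8b, Mbl1 and Cfb lower), where it called 1138 of 15668 genes. In the comparison with IgG1 it called 9 (C8a, C8b, C8g and the barely counted Cfd higher, the C1q genes, C5ar1 and Cfp lower), where it called 1270 of 14642 genes. The limma-voom fit called 0 members, and 0 of 14763 genes, in both.

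**Figure D2:**
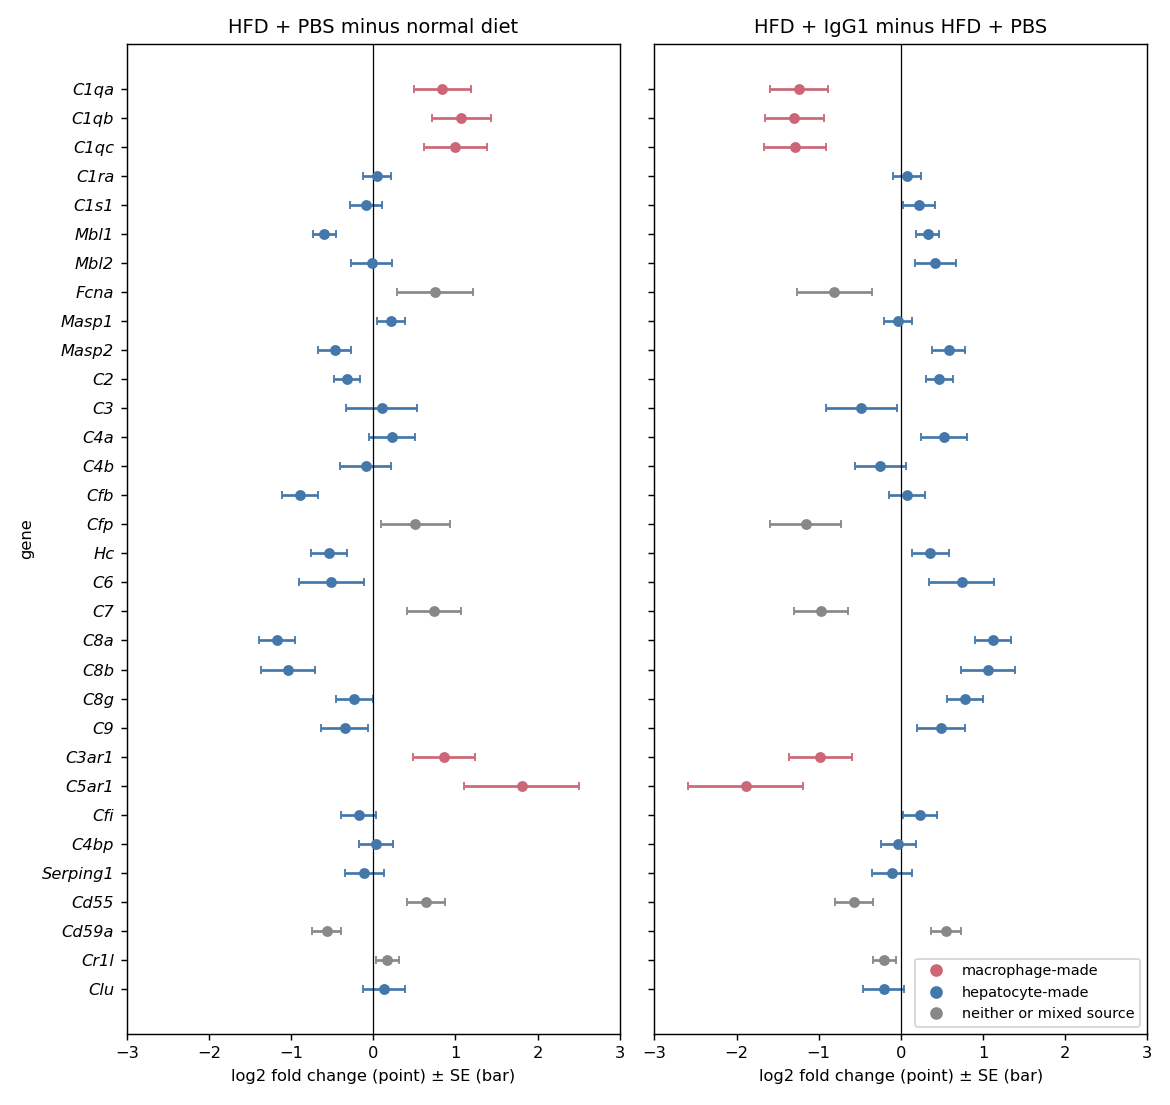
Log2 fold change (points) and its standard error (bars) of the 32 tested complement genes, for HFD + PBS minus normal diet (left) and HFD + IgG1 minus HFD + PBS (right). Colour gives the known main source. The 5 macrophage-made genes lie right of 0 on the left and left of 0 on the right, and most hepatocyte-made genes lie nearer to 0, with C8a, C8b and on the left Cfb the farthest from it. The HFD + PBS libraries enter both panels.

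C1q is built from A, B and C chains, encoded by 3 genes that sit side by side on chromosome 4. In GRCm38 (mm10) C1qb spans chr4:136880129-136886187, C1qc chr4:136889804-136893065 and C1qa chr4:136895917-136898803, all on the minus strand. The 250 bases before the RefSeq start of C1qb (chr4:136886201-136886450) and of C1qc (chr4:136892915-136893164), both on the minus strand of GRCm38.p6, are shown because these genes varied together over the libraries. The RefSeq start of C1qc lies inside the span given above, which is GENCODE's, so part of its 250 bases falls within that span. C1qa had no entry in the table of promoters. Capitals mark the core letters read by PU.1, a transcription factor of macrophages, searched as GAGGAA on both strands.
C1qb: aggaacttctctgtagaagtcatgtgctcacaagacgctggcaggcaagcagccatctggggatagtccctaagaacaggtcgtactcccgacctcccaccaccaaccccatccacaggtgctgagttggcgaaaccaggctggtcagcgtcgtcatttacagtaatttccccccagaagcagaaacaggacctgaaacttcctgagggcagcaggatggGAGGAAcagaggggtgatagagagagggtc
C1qc: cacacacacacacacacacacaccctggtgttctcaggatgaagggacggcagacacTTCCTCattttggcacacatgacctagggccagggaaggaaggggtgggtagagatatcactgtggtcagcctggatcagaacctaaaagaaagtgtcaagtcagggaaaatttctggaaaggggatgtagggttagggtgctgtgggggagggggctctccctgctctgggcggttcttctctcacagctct
The match lies 30 bases before the start in C1qb and, on the reverse strand, 193 bases before it in C1qc. It occurs in 23.3% of the 32851 RefSeq promoters of that length, and in 4 of the 24 complement genes found there, the others being Fcna and Cd59a.

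C1qa had 131, 173 and 168 CPM on normal diet, 286, 289 and 270 CPM in HFD + PBS, and 65.9, 200 and 93.0 CPM in HFD + IgG1. C1qb had 137, 174 and 161 CPM, then 337, 358 and 297 CPM, then 69.3, 226 and 106 CPM in the same order. C1qc had 134, 158 and 143 CPM, then 306, 301 and 265 CPM, then 57.2, 206 and 94.1 CPM. Each HFD + PBS library lay above every other library for all 3 genes, and in HFD + IgG1 replicate 6 lay above all normal diet libraries while replicates 5 and 7 lay below them. C1qb was 2.10-fold higher in HFD + PBS than on normal diet (log2 fold change 1.07, SE 0.36, edgeR adjusted p = 0.16). C1qa was 1.79-fold (0.84, SE 0.35, adjusted p = 0.213) and C1qc 2.01-fold higher (1.00, SE 0.38, adjusted p = 0.189). In HFD + IgG1 they were 2.36- to 2.47-fold lower than in HFD + PBS, with log2 fold changes of -1.24 (SE 0.35) for C1qa, -1.30 (SE 0.36) for C1qb and -1.29 (SE 0.38) for C1qc, each at an adjusted p of 0.14. Without HFD + IgG1 replicate 6, these were -1.82, -1.91 and -1.94, with adjusted p = 0.00299 for C1qa and 0.00305 for C1qb and C1qc in edgeR. That replicate was set apart by the values of these same genes, so the smaller p-values are no further support. The 3 chains kept close to 1 proportion: C1qa over C1qc ran from 0.936 to 1.17 and C1qb over C1qc from 1.03 to 1.21 in the 9 libraries.

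Genes that mark Kupffer cells varied with C1q. The summed level of 8 of them (Clec4f, Vsig4, Timd4, Cd5l, Marco, Adgre1, Folr2 and Csf1r) was 1783 to 2361 CPM on normal diet, 2317 to 2888 CPM in HFD + PBS, and 740, 2593 and 1013 CPM in HFD + IgG1. All 8 had a positive log2 fold change in HFD + PBS against normal diet, with a median of 0.47, and 0 of 8 had an unadjusted p below 0.05. In HFD + IgG1 against HFD + PBS all 8 were negative, with a median of -0.82, and 4 had an unadjusted p below 0.05. In RNA of whole liver, a different number of cells of a type and a different amount of RNA per cell cannot be told apart. Summed C1q over the summed Kupffer markers was 0.221, 0.214 and 0.265 on normal diet, 0.343, 0.409 and 0.288 in HFD + PBS, and 0.260, 0.244 and 0.289 in HFD + IgG1. This ratio was thus higher in every HFD + PBS library than in any normal diet library, and overlapped between HFD + PBS and HFD + IgG1. Against Clec4f alone, a marker known for Kupffer cells, summed C1q was 0.929 to 1.00 on normal diet, 1.36 to 1.97 in HFD + PBS and 0.859 to 1.23 in HFD + IgG1, without overlap between the high-fat diet groups. Against Adgre1 it was 3.38 to 4.56, 4.83 to 5.81 and 4.04 to 5.32, and against Csf1r 1.57 to 2.12, 2.30 to 2.57 and 1.34 to 2.35, where HFD + IgG1 replicate 7 overlapped HFD + PBS in both. Markers of recruited macrophages summed to 82.9 to 139 CPM on normal diet, 288 to 557 CPM in HFD + PBS and 69.5, 196 and 72.1 CPM in HFD + IgG1, and the median over their 8 log2 fold changes was 1.62 and then -1.84. Spp1, listed also as a cholangiocyte marker, was the highest of the 8 in every library. Ly6c2, Trem2, Spp1, Gpnmb and Cd9 did not overlap between HFD + PBS and normal diet, where Ccr2, Itgax and Cx3cr1 did. The part of recruited macrophages in the C1q values was not tested.

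**Figure D3:**
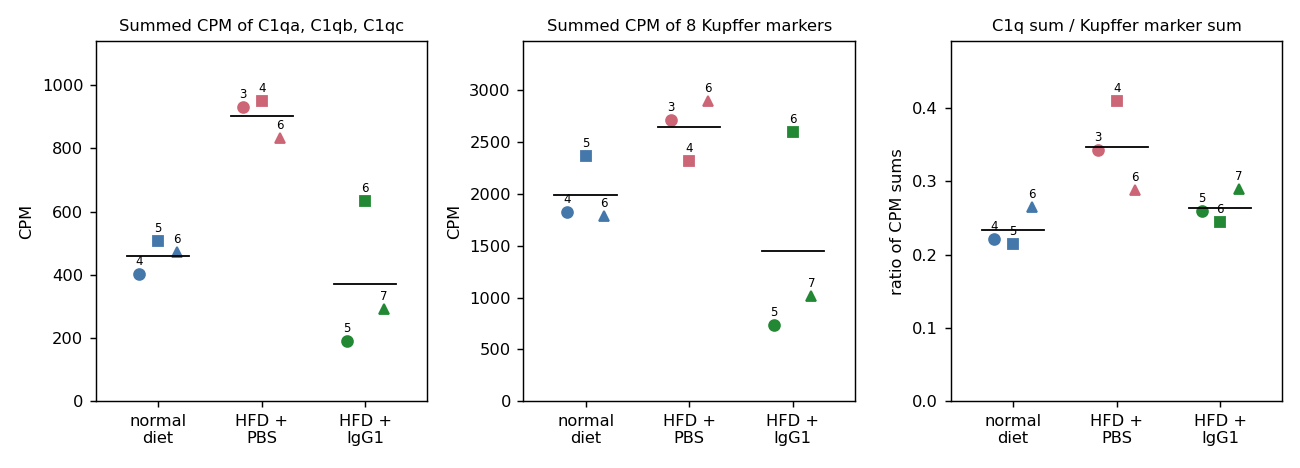
Summed CPM of the C1q genes (left), summed CPM of 8 Kupffer cell markers (middle) and their ratio (right) in each library, numbered by replicate, with the group mean as a line. The ratio is 0.288 to 0.409 in HFD + PBS and 0.214 to 0.265 on normal diet, while HFD + IgG1 at 0.244 to 0.289 reaches the lowest HFD + PBS value.

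The receptors of C3a and C5a, found on myeloid cells, were low in level and highest in HFD + PBS. C5ar1 had 4.21, 5.01 and 2.22 CPM on normal diet, 17.9, 9.21 and 13.0 CPM in HFD + PBS, and 1.14, 8.18 and 1.39 CPM in HFD + IgG1, so that all HFD + PBS values lay above the rest. It was 3.50-fold higher in HFD + PBS than on normal diet (log2 fold change 1.81, SE 0.70, edgeR adjusted p = 0.197) and 3.70-fold lower in HFD + IgG1 than in HFD + PBS (-1.89, SE 0.70, adjusted p = 0.163). C3ar1 had 10.1, 12.3 and 6.72 CPM, then 23.2, 13.3 and 16.2 CPM, then 6.64, 14.4 and 5.74 CPM, and here replicate 6 of HFD + IgG1 overlapped HFD + PBS. Its log2 fold changes were 0.86 (SE 0.38, adjusted p = 0.235) and -0.98 (SE 0.38, adjusted p = 0.169). Without HFD + IgG1 replicate 6, set apart by the values of these same genes among others, the comparison with IgG1 gave smaller edgeR p-values. C5ar1 then had a log2 fold change of -3.39 (SE 0.45, adjusted p = 0.00376) and C3ar1 one of -1.50 (SE 0.32, adjusted p = 0.0161). With the 3 contradictory libraries left out, which takes away replicate 5 of that group and keeps replicate 6, they were -1.52 (SE 0.84) and -0.89 (SE 0.52). Neutrophils carry both receptors too. Their 8 markers summed to 36.4 to 186 CPM on normal diet, 3955, 445 and 1491 CPM in HFD + PBS, and 13.5, 613 and 20.3 CPM in HFD + IgG1, and their part in the receptor values was not tested.

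Fcna, encoding ficolin A, a lectin made by tissue macrophages, and Cfp, encoding properdin, made by leukocytes, were of mixed source in the list and showed a like order of groups. Fcna had 65.3, 63.6 and 104 CPM on normal diet, 110, 132 and 150 CPM in HFD + PBS, and 31.8, 135 and 58.2 CPM in HFD + IgG1. Cfp had 97.0, 166 and 115 CPM, then 161, 134 and 243 CPM, then 39.9, 134 and 66.3 CPM. Fcna did not overlap between HFD + PBS and normal diet, where Cfp did, and both overlapped between HFD + IgG1 and HFD + PBS through replicate 6 of HFD + IgG1. The log2 fold changes were 0.75 (SE 0.46) and -0.81 (SE 0.46) for Fcna, and 0.51 (SE 0.42) and -1.16 (SE 0.43) for Cfp. Of these, the last had an unadjusted p below 0.05, with an edgeR adjusted p of 0.16. Without HFD + IgG1 replicate 6 the comparison with IgG1 gave -1.54 (SE 0.32, adjusted p = 0.0149) for Fcna and -1.75 (SE 0.35, adjusted p = 0.0133) for Cfp, and with the 3 contradictory libraries left out -0.36 (SE 0.44) and -0.59 (SE 0.36).

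**Figure D4:**
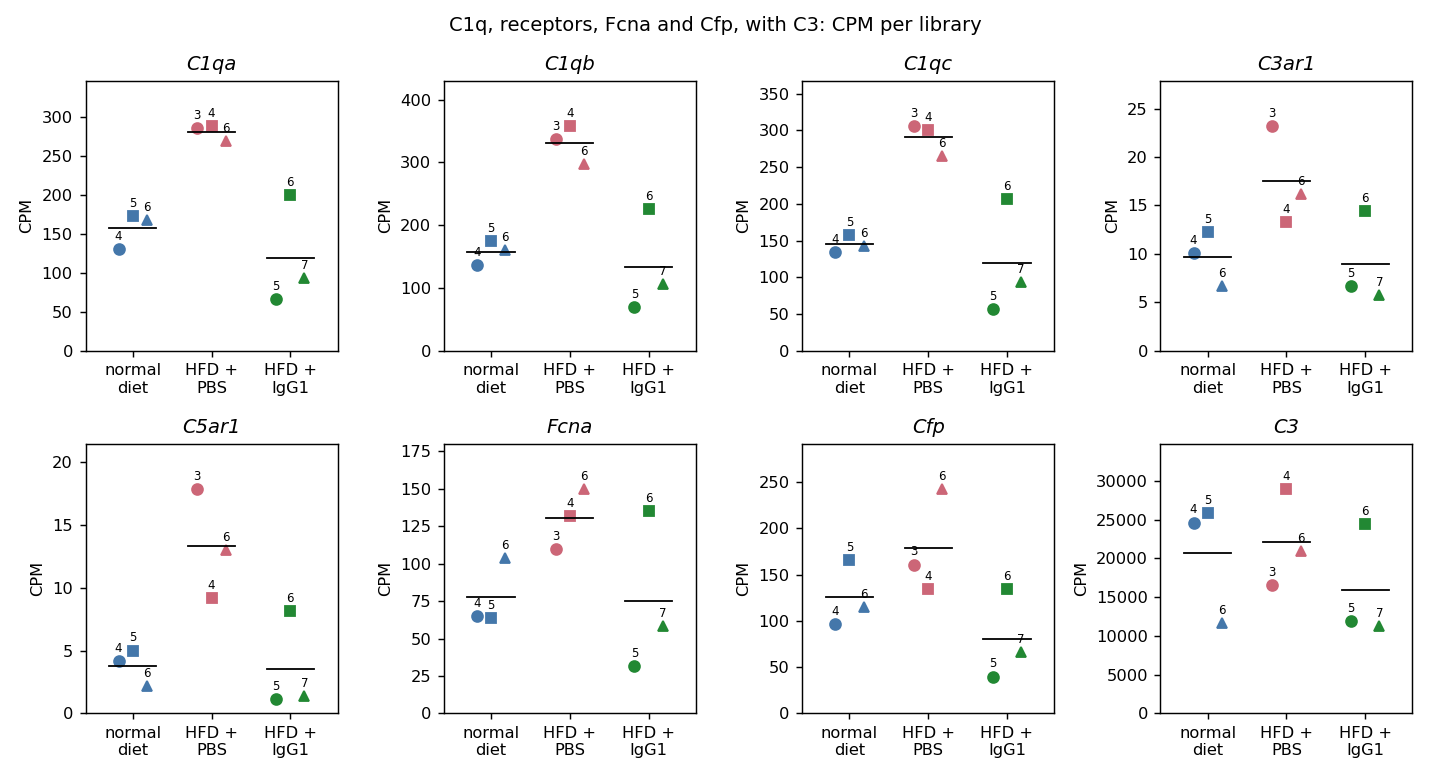
CPM of the C1q genes, the receptors, Fcna and Cfp, with hepatocyte-made C3 for contrast, in each library (linear axes from 0, points numbered by replicate, line at the group mean). In HFD + IgG1, replicate 6 lies above replicates 5 and 7 in every panel, and C1q is highest in HFD + PBS where C3 overlaps among all groups.

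The terminal pathway held the widest differences among the hepatocyte-made genes. C8 is made of alpha, beta and gamma chains, and C8a and C8b, which encode the pore-forming alpha and beta chains, lie close together on chromosome 4 on opposite strands (chr4:104815679-104876398, minus, and chr4:104766317-104804548, plus). The 250 bases before each RefSeq start, C8a at chr4:104876399-104876648 on the minus strand and C8b at chr4:104766067-104766316 on the plus strand of GRCm38.p6, are shown because these 2 hepatocyte-made genes differed most between the groups. Capitals mark the core letters read by HNF1, searched as GTTAAT on both strands. HNF1 is a transcription factor of hepatocytes.
C8a: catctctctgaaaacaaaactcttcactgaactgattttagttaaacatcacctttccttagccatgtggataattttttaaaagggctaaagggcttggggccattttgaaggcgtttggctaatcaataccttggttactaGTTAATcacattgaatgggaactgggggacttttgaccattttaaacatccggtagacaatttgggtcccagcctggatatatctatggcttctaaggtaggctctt
C8b: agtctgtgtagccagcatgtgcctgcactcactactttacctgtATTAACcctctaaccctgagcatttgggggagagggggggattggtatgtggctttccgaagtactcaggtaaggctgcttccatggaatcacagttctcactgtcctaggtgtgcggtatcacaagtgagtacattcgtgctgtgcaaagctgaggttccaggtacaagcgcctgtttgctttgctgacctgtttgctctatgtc
The match lies 107 bases before the start in C8a and 206 before it, on the reverse strand, in C8b. It occurs in 6.43% of the 32851 promoters and in 7 of the 24 complement genes found there, the other 5 being Hc, C7, C1ra, C4bp and Cfp.

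C8a had 1669, 1251 and 1232 CPM on normal diet, 539, 706 and 604 CPM in HFD + PBS, and 1437, 1130 and 1458 CPM in HFD + IgG1. The HFD + PBS libraries lay below all 6 others. C8a was 2.25-fold lower in HFD + PBS than on normal diet (log2 fold change -1.17, SE 0.22, edgeR adjusted p = 0.078) and 2.18-fold higher in HFD + IgG1 than in HFD + PBS (1.12, SE 0.22, adjusted p = 0.14). DESeq2 gave C8a adjusted p-values of 9.98e-06 and 8.65e-05. Without HFD + IgG1 replicate 6 edgeR called it in both comparisons (adjusted p = 0.0272 and 0.00946). That replicate had the lowest C8a of its group, so these calls are no further support. With the 3 contradictory libraries left out edgeR did not call C8a, with log2 fold changes of -1.19 (SE 0.34, adjusted p = 0.251) and 1.01 (SE 0.34, adjusted p = 0.566).

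C8b had 333, 235 and 451 CPM on normal diet, 134, 202 and 159 CPM in HFD + PBS, and 436, 200 and 396 CPM in HFD + IgG1, where replicate 6 lay among the HFD + PBS values. Its log2 fold changes were -1.04 (SE 0.33, edgeR adjusted p = 0.144) and 1.06 (SE 0.33, adjusted p = 0.14). The latter was 1.34 (SE 0.27, adjusted p = 0.0141) without that replicate and 0.78 (SE 0.39, adjusted p = 0.566) with the 3 contradictory libraries left out. Since that replicate had the lowest C8b of its group, the call made without it is no further support. C8g, which encodes the gamma chain, a lipocalin, had 192, 160 and 274 CPM, then 166, 165 and 205 CPM, then 331, 250 and 337 CPM. It overlapped between the diets and was higher in HFD + IgG1 than in HFD + PBS in every library (log2 fold change 0.78, SE 0.22, adjusted p = 0.14). Without replicate 6, the lowest of its group here too, the log2 fold change was 0.91 (SE 0.23, adjusted p = 0.03), which is no further support. C8a and C8b thus had like differences between the groups, where C8g differed less between the diets (log2 fold change -0.23, SE 0.22). In single libraries C8a over C8b ran from 2.73 in normal diet replicate 6 to 5.66 in HFD + IgG1 replicate 6.

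Of the rest of the pathway, Hc, the mouse gene of C5, had 1892, 1754 and 1968 CPM on normal diet and 1009, 1542 and 1322 CPM in HFD + PBS, without overlap (log2 fold change -0.54, SE 0.22, edgeR adjusted p = 0.212). In HFD + IgG1 it had 1556, 1878 and 1530 CPM. C6 had 267, 97.8 and 374 CPM, then 190, 187 and 142 CPM, then 320, 227 and 320 CPM. Its lowest normal diet value and its lowest HFD + PBS value were those of the 2 libraries with Xist. With the 3 contradictory libraries left out, the log2 fold change of C6 in HFD + PBS against normal diet was -0.74 (SE 0.28) in place of -0.51 (SE 0.40). C9, which polymerises into the pore, had 419, 496 and 805 CPM, then 535, 324 and 494 CPM, then 527, 696 and 675 CPM, with overlap in both comparisons. C7, unlike the others not chiefly a hepatocyte product, had 4.58, 6.18 and 4.50 CPM, then 9.71, 9.38 and 6.34 CPM, then 3.85, 6.41 and 2.72 CPM, which gave log2 fold changes of 0.74 (SE 0.33) and -0.97 (SE 0.33), the latter -1.37 (SE 0.32, adjusted p = 0.0222) without HFD + IgG1 replicate 6. That replicate had the highest C7 of its group, so this call is no further support.

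Genes known to be higher in male than in female mouse liver varied beside C8b, C8g and C6. Over 7 of them the sum was 2060, 106 and 6031 CPM on normal diet, 519, 200 and 64.1 CPM in HFD + PBS, and 4294, 495 and 4831 CPM in HFD + IgG1. The libraries highest in that sum, normal diet replicate 6 and HFD + IgG1 replicates 5 and 7, were also the 3 highest for C8b, and HFD + IgG1 replicates 5 and 7 were the 2 highest for C8g. Their part in the C8 and C6 values was not tested.

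**Figure D5:**
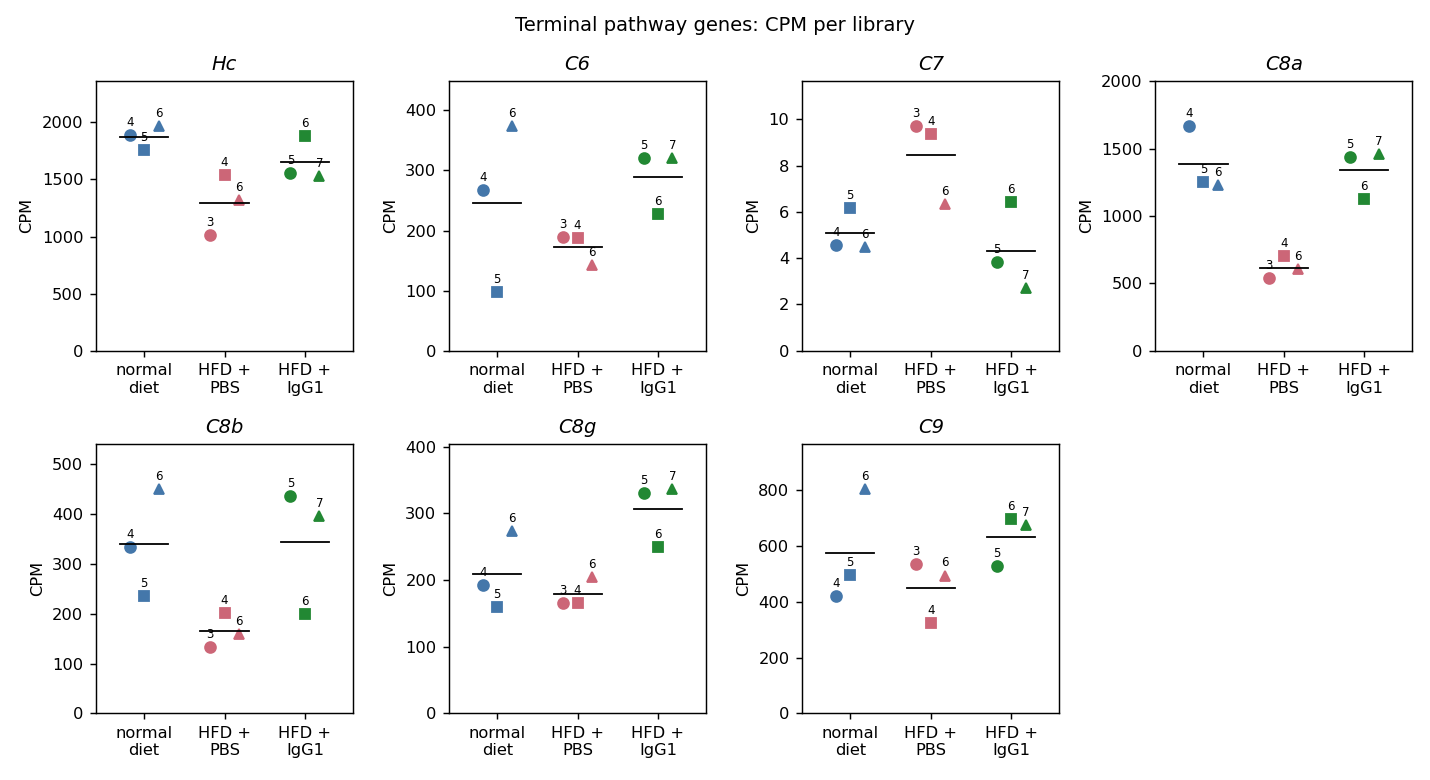
CPM of the 7 terminal pathway genes in each library (linear axes from 0, points numbered by replicate, line at the group mean). C8a in HFD + PBS, at 539 to 706 CPM, lies below every other library, C6 is lowest in normal diet replicate 5, and C7 is highest in HFD + PBS replicates 3 and 4.

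C3, the central component and the most abundant complement transcript, did not separate the groups. It had 24644, 25818 and 11630 CPM on normal diet, 16605, 29010 and 20946 CPM in HFD + PBS, and 11955, 24498 and 11325 CPM in HFD + IgG1. The low libraries were 1 of normal diet and 2 of HFD + IgG1, and all groups overlapped (log2 fold change 0.10, SE 0.43, and -0.48, SE 0.43, edgeR adjusted p = 0.92 and 0.502). Without HFD + IgG1 replicate 6 the difference from HFD + PBS was -0.93 (SE 0.41, adjusted p = 0.145). C4b, the main C4 gene, was low in the same 3 libraries and in HFD + PBS replicate 3, with 3445, 3643 and 2386 CPM, then 2228, 3689 and 2971 CPM, then 2050, 3435 and 2001 CPM. Of 8 listed acute phase genes, which hepatocytes switch on under inflammatory cytokines, 7 had their 3 lowest values in normal diet replicate 6 and HFD + IgG1 replicates 5 and 7, and the other, Itih4, was lowest in HFD + PBS replicate 3. Saa1 had 564 CPM in normal diet replicate 6 and 46.7 and 124 CPM in HFD + IgG1 replicates 5 and 7, against 1670 to 8882 CPM in the other 6. Their part in the C3 and C4b values was not tested. The 250 bases before the RefSeq start of C3 (chr17:57228137-57228386, minus strand, GRCm38.p6) are shown with a C/EBP match in capitals, since C/EBP factors act in acute phase induction. The letters searched were TTGCNNAA, on both strands.
C3: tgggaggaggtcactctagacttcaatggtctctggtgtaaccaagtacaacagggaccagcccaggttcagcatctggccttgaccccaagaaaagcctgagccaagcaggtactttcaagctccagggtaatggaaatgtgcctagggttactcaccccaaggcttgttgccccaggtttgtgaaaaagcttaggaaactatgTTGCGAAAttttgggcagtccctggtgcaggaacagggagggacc
The match lies 45 bases before the start. It occurs in 9.56% of the 32851 promoters and in 3 of the 24 complement genes found there, with C1s1 and C9.

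C4a, the neighbouring copy of C4b also known as sex-limited protein, had 9.22 to 13.6 CPM on normal diet, 11.2 to 18 CPM in HFD + PBS and 15.9, 15.6 and 27.4 CPM in HFD + IgG1. Of its 50-base windows 30.6% also occur in C4b, so reads of the far more abundant C4b may be counted in it, and its values are uncertain. C2, which pairs with C4 in the C3 convertase, had 40, 34.3 and 41.2 CPM, then 31.7, 35.8 and 25.2 CPM, then 42.6, 46.0 and 40.2 CPM. It was higher in every HFD + IgG1 library than in HFD + PBS (log2 fold change 0.47, SE 0.16, edgeR adjusted p = 0.142) and overlapped between the diets.

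Among the serine proteases and lectins that start the cascade, C1ra and C1s1 varied little. C1ra ran from 275 to 371 CPM and C1s1 from 363 to 527 CPM over all 9 libraries, with log2 fold changes of 0.04 and -0.09 in HFD + PBS against normal diet, so the order of groups seen in C1q was not seen in the proteases that bind to it. C1ra shares 48% of its 50-base windows with its copy C1rb and C1s1 shares 21.8% with C1s2. Mbl1, encoding mannose-binding lectin A, had 259, 293 and 259 CPM on normal diet, 168, 189 and 179 CPM in HFD + PBS and 215, 223 and 235 CPM in HFD + IgG1. The 3 groups did not overlap, with log2 fold changes of -0.60 (SE 0.14, edgeR adjusted p = 0.0865) and 0.33 (SE 0.14, adjusted p = 0.191). Mbl2, encoding mannose-binding lectin C, overlapped among all groups at 134 to 258 CPM. Masp2, whose protease cleaves C4 and C2, had 115, 132 and 142 CPM, then 71.1, 118 and 91.3 CPM, then 142, 120 and 157 CPM, and was higher in every HFD + IgG1 library than in HFD + PBS (log2 fold change 0.58, SE 0.20, adjusted p = 0.145). Exons of Tardbp on the opposite strand cover 54.9% of the Masp2 exon bases, and without knowing whether counting used the strand, reads of the 2 genes cannot be told apart. Masp1 had log2 fold changes of 0.22 and -0.03, with overlap in both of these comparisons.

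In the alternative pathway, Cfb, encoding factor B, was low in both high-fat diet groups. It had 18.7, 20.8 and 12.2 CPM on normal diet, 7.77, 10 and 10.2 CPM in HFD + PBS, and 9.06, 11 and 9.24 CPM in HFD + IgG1. It was 1.85-fold lower in HFD + PBS than on normal diet (log2 fold change -0.89, SE 0.22, edgeR adjusted p = 0.102) and 1.77-fold lower in HFD + IgG1 than on normal diet (-0.82, SE 0.22, adjusted p = 0.503), and its level in HFD + IgG1 overlapped that in HFD + PBS. Another gene model, Gm20547, spans 79.5% of the Cfb exon bases and 42.8% of those of C2 on the same strand. It has 0 counts in every library, so reads shared between the models may be missing from Cfb and C2 and their levels are uncertain. Cfd, encoding factor D or adipsin, a fat cell product, had 1, 0 and 3 counts on normal diet, 1, 0 and 0 in HFD + PBS and 24, 2 and 79 in HFD + IgG1. It did not pass the filter on low counts in the fit over all 9 libraries. DESeq2, run without that filter, called it higher in HFD + IgG1 than in HFD + PBS (adjusted p = 0.00343). Its 3 HFD + IgG1 counts spanned 2 to 79. With all 9 libraries and the filter left out, edgeR did not call Cfd in this comparison. It did so without HFD + IgG1 replicate 6 (adjusted p = 0.00501), which takes away the count of 2 and leaves 24 and 79. That call is therefore no further support. Of 6 fat cell markers, Lep had 0 counts in all libraries, Adipoq and Plin1 had 1 count each in all libraries together, and Cidea had at most 3. The others, which are not confined to fat cells, were Plin4, with 456 counts in HFD + IgG1 replicate 7 and 449 in normal diet replicate 4, and Adipor2, higher in HFD + IgG1 than in HFD + PBS (log2 fold change 0.86, SE 0.24, edgeR adjusted p = 0.14). Their part in the Cfd counts was not tested.

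Of the soluble regulators none separated the groups. Cfi, the protease that degrades C3b, ran from 668 to 1120 CPM over the 9 libraries. C4bp, its cofactor, ran from 661 to 951 CPM, Serping1, the C1 inhibitor, from 835 to 1379 CPM, and Clu, clusterin, from 1766 to 2969 CPM, each with overlap in all 3 comparisons and a log2 fold change between -0.22 and 0.23. The membrane-bound regulators, of mixed cell source, differed among themselves. Cd55, which breaks up convertases, had 21.1, 23.2 and 22.1 CPM on normal diet, 25.7, 42.7 and 35.0 CPM in HFD + PBS and 20.7, 30.2 and 18.6 CPM in HFD + IgG1 (log2 fold change 0.64, SE 0.23, edgeR adjusted p = 0.169, and -0.57, SE 0.23, adjusted p = 0.171). The latter was -0.81 (SE 0.22, adjusted p = 0.035) without HFD + IgG1 replicate 6, which had the highest Cd55 of its group, so this call is no further support. Cd59a, which blocks the membrane attack complex, had 50.1, 76.9 and 66.0 CPM, then 42.3, 39.4 and 48.0 CPM, then 71.0, 57.6 and 61.0 CPM. Its HFD + PBS values lay below all others, with log2 fold changes of -0.57 (SE 0.18, adjusted p = 0.137) and 0.55 (SE 0.18, adjusted p = 0.141). Cr1l, encoding the rodent regulator Crry, kept to 39.8 to 50.5 CPM in all libraries.

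Counted by non-overlap in place of the p, 8 of the 32 tested genes lay wholly higher and 6 wholly lower in HFD + PBS than on normal diet, where 13% and 15.3% of all tested genes did. In HFD + IgG1 against HFD + PBS 7 lay wholly higher and 5 wholly lower, where 15.3% and 11.2% did. The macrophage-made genes account for 5 of those 8 and 4 of those 5.

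In HFD + IgG1 against normal diet, 2 of the 32 tested members (C4a and C8g) were higher and 1 (Cfb) lower at an unadjusted p below 0.05. Of all tested genes 3.83% were higher and 3.21% lower, so the counts of members are near that share. C8g was 1.46-fold higher (log2 fold change 0.55, SE 0.22, edgeR adjusted p = 0.671) and C4a 1.68-fold (0.75, SE 0.28, adjusted p = 0.636). The median was -0.23 over the macrophage-made genes and 0.06 over the hepatocyte-made genes, beside 0.00 over all genes. The former was -0.93 without HFD + IgG1 replicate 6, where 4 of the 5 genes were lower at an unadjusted p below 0.05, and 0.15 with the 3 contradictory libraries left out, so neither its size nor its sign was stable.

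A further 30 complement genes and receptors outside the 33 were listed, of which 25 were tested. In HFD + PBS against normal diet 3 were higher and 3 lower at an unadjusted p below 0.05, where 9.41% and 11.4% of all tested genes were, with a median log2 fold change of 0.06. Itgam, a chain of complement receptor 3 of myeloid cells, had a log2 fold change of 2.71 (SE 0.96), Cd93, a surface protein of endothelial and myeloid cells, one of 0.77 (SE 0.30) and Cpn1, a subunit of the carboxypeptidase that inactivates C3a and C5a, one of -0.46 (SE 0.17). In HFD + IgG1 against HFD + PBS 2 of the 25 were higher and 4 lower, where 12.6% and 11.6% of all tested genes were, with a median of -0.05, and the genes named by the same rule were Cd93 (-0.86, SE 0.30), the Kupffer cell receptor gene Vsig4 (-1.26, SE 0.44) and Itgb2, the other chain of complement receptor 3 (-1.51, SE 0.56). Against normal diet, HFD + IgG1 had 0 of the 25 at an unadjusted p below 0.05 in either direction, where 3.83% of all tested genes were higher and 3.21% lower, with a median of -0.09.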

How the data were processed

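Liver RNA of 9 mice was measured, 3 per group, with groups taken from titles and the series design. The deposited values are raw counts per Ensembl gene ID. The submitters' processing notes name mm10 and Bowtie 0.12.2. Of the counting program, annotation and strand setting nothing is given in the sources used here. Depth was 16215194 to 18538463 counts.

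Counts were tested in R 4.3.3 with edgeR 4.0.16: TMM, filterByExpr (minimum count 10, minimum total 15), group means over all 9 libraries, robust glmQLFit and glmQLFTest, two-sided, Benjamini-Hochberg over 14763 genes, threshold 0.05. Printed log2 fold changes are shrunken by edgeR, and the SE is the unshrunk log2 fold change over the root of F. All 33 members are named, with those of the 4 smallest p of the further list, some of which are not reported here. Members and lists were chosen with earlier results of these data known. Alternatives were DESeq2 1.42.0, limma-voom (limma 3.58.1), other scaling, filters, libraries, robust = FALSE, a replicate block, class membership and each library left out. Summing C4a and C4b was added after seeing the data. The workflow was tested on simulated data. Promoters are RefSeq's, GRCm38.p6.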

Additional observations from a re-analysis of the deposited data

How the results depend on the processing

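In edgeR 0 genes were called in any comparison, with 3076, 3569 and 1040 genes at an unadjusted p below 0.05 for HFD + PBS against normal diet, HFD + IgG1 against HFD + PBS and HFD + IgG1 against normal diet. In that order DESeq2 called 1138 of 15668, 1270 of 14642 and 101 of 14129 genes, and leaving out the filter gave 274, 57 and 6 of 26478. With only the 6 libraries compared, 184 were called in the first comparison and 3 in the last, and with the 3 libraries that contradict their labels left out 2 in the first. Leaving out 1 library gave 0 to 576, 0 to 2356 and 0 to 6 calls, the highest in each without HFD + IgG1 replicate 6. Without HFD + PBS replicate 6 there were 14 calls in the first comparison and 4 in the last. Of the complement genes, DESeq2 called 6, 9 and 1, where Cfd is in the last 2 counts. Leaving out HFD + IgG1 replicate 6 called 5, 13 and 0 of them, where 576, 2356 and 6 genes were called in all, and Cfd is in the 13.

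The hepatocyte-made median was -0.24 to 0.01 and 0.19 to 0.33 in the first and second comparison with 1 library left out, and the macrophage-made median was -1.91 to -0.98 in the second and -0.93 to 0.05 in the third. Replicate numbers did not pair the livers: deviations of same-numbered libraries correlated from -0.538 to 0.0319. With a replicate block 0 genes were called, the hepatocyte-made medians were -0.06 and 0.18, and members at an unadjusted p below 0.05 went from 14 to 2, 15 to 2 and 3 to 0. In that block HFD + PBS replicate 3 and HFD + IgG1 replicate 7 share their number with no other library, so they no longer inform the comparisons or the spread. How far this lowered the counts was not tested. Counts were lowest for Cfd, at 0 to 79 a library, where counting error is largest in proportion.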
